A study of Mus musculus with 28 samples.

Results

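The genes described here are 35 genes of glycolysis and of the response to low oxygen, taken by name from a fixed list. That list was chosen with earlier results of these data known, so the counts below are not independent of that choice. All 35 were found among the 24015 genes of the count table, and all 35 passed the filter on low counts. The Eno1 row is no measure of its RNA, as described below, yet it stays in every count and median over the 35. By role they are 4 transporters of glucose and lactate (Slc2a1, Slc2a3, Slc16a1, Slc16a3), 11 enzymes from hexokinase to triose phosphate (Hk1, Hk2, Gpi1, Pfkl, Pfkm, Pfkp, Pfkfb3, Pfkfb4, Aldoa, Aldoc, Tpi1) and 6 enzymes of lower glycolysis (Gapdh, Pgk1, Pgam1, Eno1, Eno2, Pkm). The others are 4 genes that set the fate of pyruvate (Ldha, Ldhb, Pdk1, Pdha1), 3 subunits of the hypoxia-inducible factors (Hif1a, Epas1, Arnt) and 7 prolyl hydroxylases and other targets of those factors (Egln1, Egln3, Bnip3, Ankrd37, Adm, P4ha1, P4ha2).

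Glycolysis splits glucose into pyruvate in the cytosol, and lactate dehydrogenase can turn pyruvate into lactate, which leaves the cell through monocarboxylate transporters. A hypoxia-inducible factor (HIF) is a pair of an oxygen-labile alpha subunit, encoded by Hif1a or Epas1 (HIF-2 alpha), and the stable partner encoded by Arnt. With oxygen present, prolyl hydroxylases such as those encoded by Egln1 and Egln3 mark the alpha subunit for destruction, so that mRNA of an alpha subunit is no measure of the protein. Many genes of glycolysis are known HIF targets, and endothelial cells are known to rely on glycolysis for much of their energy.

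RNA had been sequenced from 28 libraries of 100 sorted cells each, from mouse embryos on embryonic days E8.5, E9.5 and E10.5, to follow the step in which hemogenic endothelium, the part of the vessel lining that forms blood, gives rise to blood cells. Endothelial cells (EC) and hemogenic endothelium (HE) were sampled on all 3 days, pro-HSC/HPC at E9.5, and pre-HSC I and pre-HSC II at E10.5 (HSC, hematopoietic stem cell; HPC, hematopoietic progenitor cell). E8.5 HE had 4 libraries and each of the other 8 populations had 3. Every library carried the same genotype label, 23GFP transgenic, so all groups share the transgene. Tissue was labelled PAS+VU on the first and second of these days and AGM+VU on the last, so the dissected tissue and the step to E10.5 cannot be told apart. No label gives a batch, a date, a litter or the sort gates.

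Library totals ran from 16308918 to 31405603 counts, and levels are given as CPM, which are counts divided by each library's TMM-scaled size. All 7 endothelial markers (Cdh5, Pecam1, Kdr, Tek, Emcn, Esam, Cldn5) had counts in every population, with a sum of 1099 to 1302 CPM in E8.5 EC, 3207 to 3473 CPM in E10.5 HE and 311 to 395 CPM in pre-HSC II. The 7 hematopoietic markers (Runx1, Ptprc, Spn, Itga2b, Myb, Gfi1, Gfi1b) summed to 5.58 to 8.77 CPM in E10.5 EC and 687 to 862 CPM in pre-HSC II. At E8.5 their sums overlapped, at 26.6 to 44.4 CPM in HE and 22.6 to 33.8 CPM in EC. There 5 of them were higher in HE and 2 lower, with 0 called, and the mean of Runx1 was 2.76 CPM in HE and 3.61 CPM in EC. E8.5 HE is thus named by its label and not told from EC by these markers. Erythroid markers summed to 13.0, 4066 and 12140 CPM in the 3 pro-HSC/HPC libraries and to as much as 1406 CPM in pre-HSC I, and pro-HSC/HPC replicates 2 and 3, with 1.11% and 0.422% of counts on hemoglobin genes, stood apart (pre-HSC I replicate 3 had 0.172%). Marker genes of mesenchyme and smooth muscle summed to 223 to 906 CPM in E10.5 HE and 24.7 to 337 CPM in E10.5 EC. The part of these other cells in the results below was not tested, except where values without those 2 pro-HSC/HPC libraries are given.

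The 35 genes together took a falling mean share of the counts in EC and in HE from E8.5 to E10.5. They held 1.79% ± 0.104 (SD, n = 3) of all counts in E8.5 EC, 1.35% ± 0.235 (SD, n = 4) in E8.5 HE, 0.957% ± 0.173 (SD, n = 3) in E9.5 EC and 0.816% ± 0.120 (SD, n = 3) in E9.5 HE. The lowest share was 0.469% ± 0.0318 (SD, n = 3) in E10.5 HE, and it was 0.7095% ± 0.0186 in E10.5 EC, 0.560% ± 0.0228 in pre-HSC I, 0.662% ± 0.0627 in pre-HSC II and 0.677% ± 0.105 in pro-HSC/HPC (SD, n = 3 each). All 3 E10.5 HE libraries (0.436% to 0.500%) lay below every library of the other 8 populations (0.534% or more). The share is a sum and rests most on abundant genes, as Pkm, Aldoa, Ldha and Pgk1 in E8.5 EC (means of 5248, 4626, 3495 and 2310 CPM). Of the 35 genes, 19 had their highest mean in E8.5 EC, 14 had their lowest mean in E10.5 HE and 8 had it in pre-HSC II. The same counts over all genes are not given here, so these cannot be read as particular to the 35 genes. In libraries of sorted cells, fewer cells with a transcript and less of it per cell cannot be told apart.

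**Figure D1:**
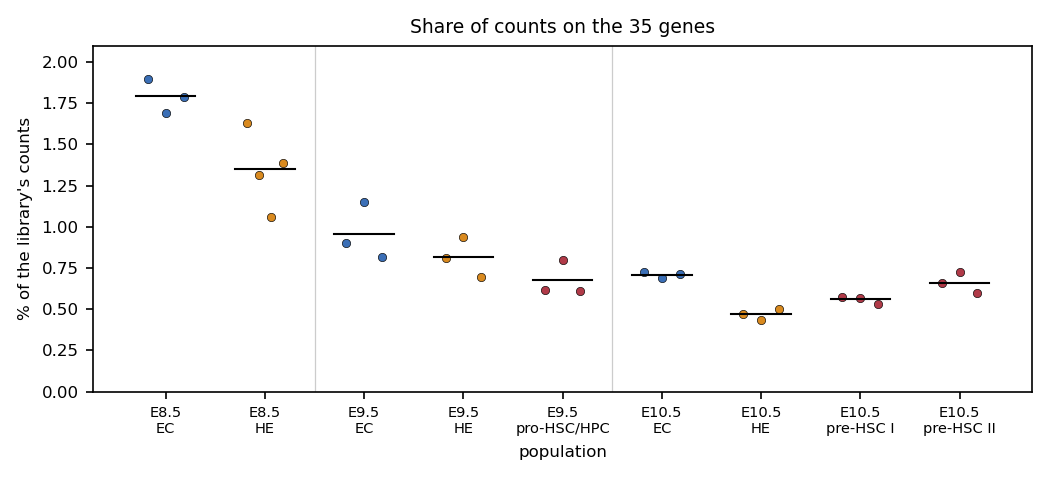
Share of each library's counts (%) on the 35 genes, by population; each point is a library and each bar the mean. The 3 E8.5 EC libraries hold 1.69% to 1.90% and the 3 E10.5 HE libraries 0.436% to 0.500%.

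**Figure D2:**
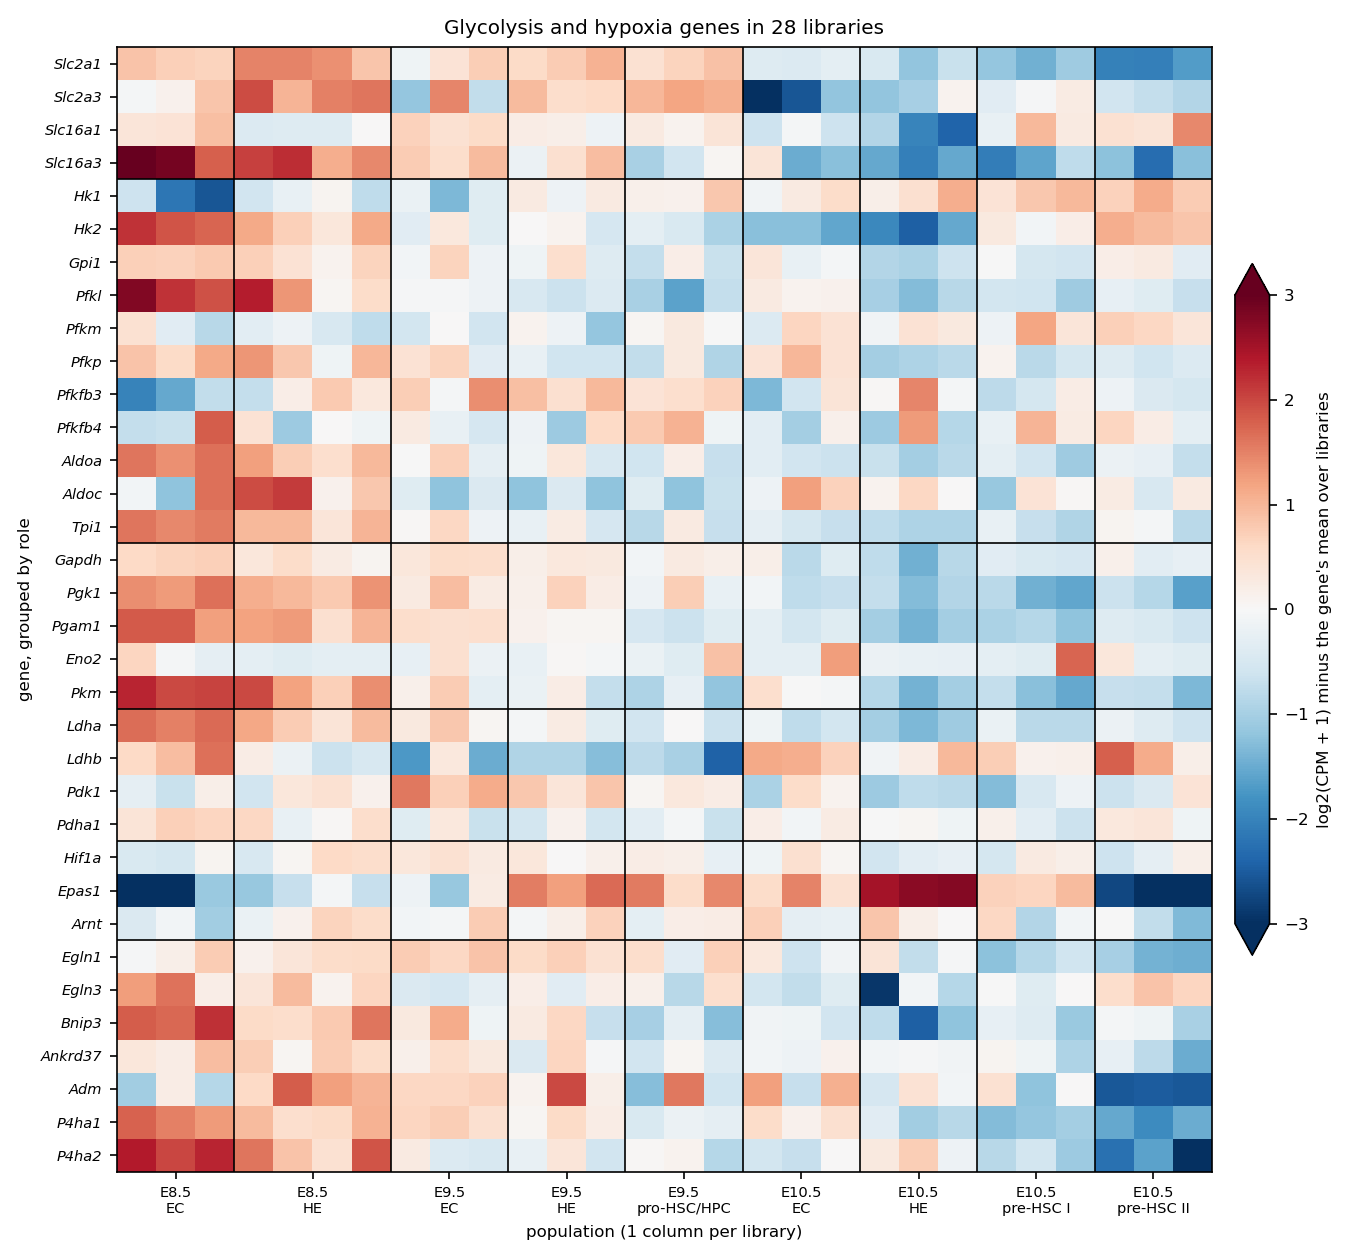
Level of each gene in each library, as log2(CPM + 1) minus the gene's mean over the 28 libraries, with genes grouped by role (rows) and libraries by population (columns); Eno1 is left out because its row is no measure of its RNA. Most rows run from red at E8.5 to blue at E10.5, while the Epas1 row runs from blue in E8.5 EC to red in E10.5 HE and back to blue in pre-HSC II.

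Each comparison below comes from 1 edgeR quasi-likelihood fit to all 28 libraries, over 15238 genes, and a gene is called where its Benjamini-Hochberg adjusted p is under 0.05. Differences are on the log2 scale with their standard error (SE). Comparisons that share a population share its libraries and are not independent of each other. Over 14 comparisons there were 65 calls on these genes, with 25 genes called at least once and 10 never (Hk1, Gpi1, Pfkm, Pfkfb4, Aldoc, Eno1, Eno2, Hif1a, Arnt, Ankrd37). How many of all genes were called at least once is not given here, so these counts cannot be read against it. Of the 65 calls, 30 held in every run that left out 1 library of the comparison.

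Hemogenic endothelium was first set against other endothelium of the same day. At E8.5, Epas1 and Pfkfb3 rose in HE, while Hk2, Ldha, P4ha1 and Pgam1 fell. That is 2 of 35 higher, where 5.08% of all genes tested were higher, and 4 of 35 lower, where 1.73% of all genes were lower. The median difference of the 35 genes was -0.39, against 0.0 over all genes. With the replicate numbers as a block, which pair the libraries on this day, 16 of the 35 were called, 5 higher (Epas1, Pfkfb3, Hk1, Slc2a1, Adm) and 11 lower (Hk2, Ldha, P4ha1, Pgam1, Pfkl, P4ha2, Tpi1, Aldoa, Bnip3, Pkm and Pgk1). Those added by the block had log2 differences from -1.29 (P4ha2, adjusted p = 0.036, and Bnip3, adjusted p = 0.0036) to 2.11 (Adm, adjusted p = 0.044). HE replicate 4 has no EC library of its number, so it adds nothing to the differences of the block fit. The share of all genes called with the block is not given here, so the 16 cannot be read against it. The count without the block rested on single libraries: it was 2 without EC replicate 1, 1 without EC replicate 2, 1 without HE replicate 3 and 10 without HE replicate 1, and at least 1 call was lost without any library other than HE replicate 1. The Hk2 call held in all 7 runs, and with only the groups compared in the fit the count was 0. Of the 7 endothelial markers, 4 were also called higher in HE (sums of 1648 to 2432 CPM, against 1099 to 1302 CPM in EC), and their part in these calls was not tested.

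At E9.5 no member was called, where 0.302% of all genes were higher in HE and 0.0% lower. Before adjustment, 1 member was higher and 2 were lower with a p under 0.05, where 629 and 368 of all 15238 genes were. DESeq2 found 1 call among the members (its share of all genes is not given here). The member nearest to a call was Epas1, with a difference of 1.76 (SE 0.47, adjusted p = 0.13) and no overlap between groups. With the replicate block, which pairs the libraries here too, Epas1 was higher in HE by 1.86 with an adjusted p of 0.0063.

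At E10.5, Epas1 rose in HE and P4ha1, Pfkp, Pgam1, Slc16a1 and Pkm fell. That is 1 of 35 higher, where 2.11% of all genes were higher, and 5 of 35 lower, where 1.37% of all genes were lower. The median difference was -0.57 over the 35 genes and -0.01 over all genes, and 27 of the 35 had a negative difference. DESeq2 called 10 members (its share of all genes is not given here). The count was 2 without EC replicate 1, 1 without HE replicate 2 and 2 without HE replicate 3, each of the 6 libraries was needed by at least 1 call, and P4ha1 was called in all 6 runs. The change of the HE minus EC difference was itself tested: no member was called from E8.5 to E9.5 (0.164% of all genes higher, 0.683% lower) or from E9.5 to E10.5 (0.0% higher, 0.0131% lower). Before adjustment, a p under 0.05 was found for 1 higher and 1 lower member in the first of these changes and for 0 and 2 in the second. Of all 15238 genes, 435 were higher and 940 lower by that rule in the first, and 424 and 413 in the second. DESeq2 found no call of a member in either. With the replicate block, 1 member was called from E8.5 to E9.5, Hk2, with a change of 1.21 (adjusted p = 0.017, against 0.21 without the block).

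The next comparisons follow endothelium into blood. At E9.5 no member was called between pro-HSC/HPC and HE, where 0.505% of all genes were higher and 0.151% lower. Before adjustment, 0 members were higher and 3 lower with a p under 0.05, where 633 and 427 of all 15238 genes were. The count of members by DESeq2 was 0. With the replicate block, which pairs these libraries, Pgam1 was lower in pro-HSC/HPC by 0.59 on the log2 scale (log2 difference -0.59, adjusted p = 0.011). At E10.5, Hk2 and Slc16a1 rose and Epas1 fell from HE to pre-HSC I. That is 2 of 35 higher, where 3.08% of all genes were higher, and 1 lower, where 3.8% were lower. Hk2 and Slc16a1 held in all 6 runs without 1 library, and Epas1 was lost without pre-HSC I replicate 2. Over the same step the summed hematopoietic markers went from 63.2 to 84.4 CPM in HE to 428 to 650 CPM in pre-HSC I, and their part in these calls was not tested. From pre-HSC I to pre-HSC II, Epas1, Adm and P4ha2 fell and no member rose, where 4.28% of all genes fell and 0.138% rose. P4ha2 was lost without pre-HSC I replicate 1 or 2 or pre-HSC II replicate 1 or 3. All 8 mesenchyme and smooth muscle markers were lower in pre-HSC II as well, 2 of them called, with sums of 135 to 380 CPM in pre-HSC I and 33.5 to 36.6 CPM in pre-HSC II. All 7 endothelial markers fell, and the part of both lists in these calls was not tested. The change of the blood minus HE difference from E9.5 to E10.5 was called for Hk2 alone among the 35 in this fit, a higher value, where 0.0328% of all genes were higher and 0.0394% lower. Its difference of differences was 2.54 (SE 0.37, adjusted p = 0.002). Without pro-HSC/HPC replicates 2 and 3, the hemoglobin-rich libraries, it was 2.29 with an adjusted p of 0.14. Without HE replicate 1 or pre-HSC I replicate 1 of E10.5, Slc16a1 was called as well.

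Across days the changes of these genes were mostly falls. In HE from E8.5 to E9.5, Epas1 rose and 9 genes fell (Pfkl, Pkm, P4ha2, Pfkp, Tpi1, Hk2, Pgam1, Aldoa and Ldha), where 2.97% of all genes rose and 3.58% fell. The count of 10 became 4 without E8.5 HE replicate 1, 6 without E8.5 HE replicate 4, 4 without E9.5 HE replicate 1 and 4 without E9.5 HE replicate 3, and Pfkl, Epas1, Pgam1 and Pkm held in all 7 runs. With only the groups compared in the fit the count was 3. The mesenchyme and smooth muscle markers summed to 35.6 to 77.2 CPM in E8.5 HE and 306 to 462 CPM in E9.5 HE, with 2 of 8 called higher, and their part in these calls was not tested. In HE from E9.5 to E10.5, 11 genes fell (Slc16a3, Hk2, Slc16a1, Pdk1, Slc2a1, Bnip3, Pgk1, Gapdh, Pgam1, Ldha and P4ha1) and none of the 35 rose, where 2.15% of all genes fell and 1.49% rose. The median difference was -0.78 over the 35 genes and 0.02 over all genes. The count became 7 without E9.5 HE replicate 2 and 6 without E10.5 HE replicate 2, and Pgam1, Slc16a1, Slc2a1, Hk2 and Gapdh held in all 6 runs. The 2 steps share the E9.5 HE libraries.

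In EC from E8.5 to E9.5, 15 of the 35 genes fell and 3 rose (Epas1, Pfkfb3 and Pdk1), where 9.56% of all genes fell and 10.1% rose. Without 1 library the count stayed between 13 and 19, and 13 of the 18 calls held in every run; those of Egln3, Ldhb, Bnip3, Pgk1 and Pdha1 did not. Over this step the endothelial markers went from 1099 to 1302 CPM to 2179 to 2474 CPM in sum (2 of 7 called higher), and the mesenchyme and smooth muscle markers from 45.3 to 64.9 CPM to 86.8 to 517 CPM (3 of 8 called higher). Their part in these calls was not tested. In EC from E9.5 to E10.5, Slc2a3, Hk2 and Pgam1 fell and none rose, where 0.453% of all genes fell and 0.308% rose. The count was 1 without E9.5 EC replicate 2, 0 without E10.5 EC replicate 2 and 1 without E10.5 EC replicate 3, and no call held in every run. DESeq2 called 7. From pro-HSC/HPC at E9.5 to pre-HSC I at E10.5, Slc2a1, Pgk1, Egln1 and P4ha1 fell and none rose, where 1.22% of all genes fell and 0.23% rose. Without any of the 6 libraries the count was 1 (pre-HSC I replicate 2) or 2 (each of the other 5), without pro-HSC/HPC replicates 2 and 3 together it was 1, and Slc2a1 held in all of these.

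**Figure D3:**
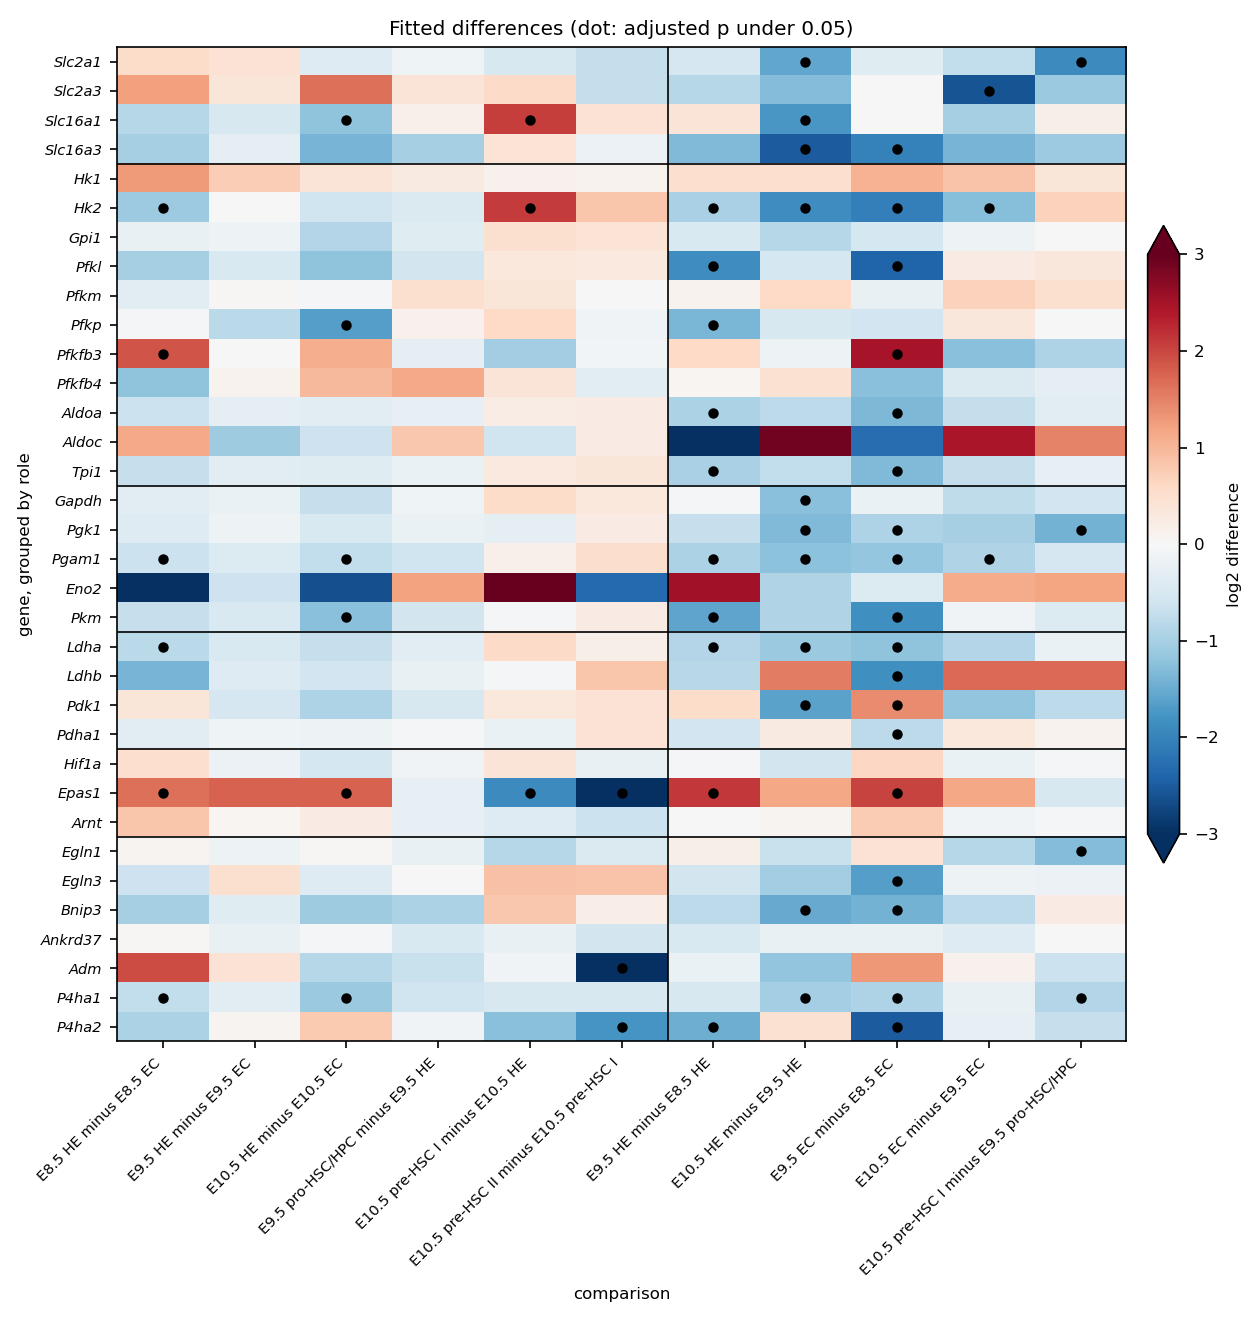
Fitted log2 difference of each gene (rows, by role) in the 11 comparisons between populations (columns), with a dot where the adjusted p was under 0.05; Eno1 is left out, and colours end at 3 either way. The column of EC from E8.5 to E9.5 holds 15 falls and that of HE from E9.5 to E10.5 holds 11, while EC from E9.5 to E10.5 holds 3 and the step from pro-HSC/HPC to pre-HSC I holds 4.

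Slc2a1 (GLUT1, the main glucose carrier of endothelium) was at 301, 273 and 263 CPM in E8.5 EC and at 464, 463, 425 and 295 CPM in E8.5 HE. It was still at 246, 282 and 339 CPM in E9.5 HE and at 227, 264 and 302 CPM in pro-HSC/HPC. At E10.5 it was at 119, 71.9 and 103 CPM in HE, at 73.7, 59.6 and 78.4 CPM in pre-HSC I and at 39.8, 39.0 and 50.6 CPM in pre-HSC II. Every library of E10.5 was thus below every library of E8.5 and E9.5, and pre-HSC II was lowest. The step from E9.5 to E10.5 was -1.56 in HE (SE 0.23, adjusted p = 0.00051) and -1.905 from pro-HSC/HPC to pre-HSC I (SE 0.23, adjusted p = 0.0002). At E8.5 the difference between HE and EC was 0.56 (adjusted p = 0.12), and with the replicate block Slc2a1 was higher in HE by 0.69 (adjusted p = 0.0014).

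Slc2a3 (GLUT3, a carrier of high affinity for glucose) had a mean of 143 CPM ± 37.3 (SD, n = 4) in E8.5 HE and 60.9 ± 21.6 (SD, n = 3) in E8.5 EC, a difference of 1.23 that was not called (SE 0.52, adjusted p = 0.16). Its E9.5 EC libraries were uneven, at 20.9, 133 and 28.2 CPM, and those of E10.5 EC were at 2.62, 7.20 and 20.4 CPM. The fall between these 2 EC populations (-2.59, SE 0.58, adjusted p = 0.028) was lost without E9.5 EC replicate 2 (-1.28) and without E10.5 EC replicate 1 or 2, and was -3.63 without E10.5 EC replicate 3.

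Slc16a1 (MCT1, a carrier of lactate and pyruvate in either direction) rose from HE to pre-HSC I at E10.5. It was at 46.7, 68.6 and 46.3 CPM in E10.5 EC, at 39.0, 17.6 and 12.8 CPM in E10.5 HE, at 61.6, 143 and 86.8 CPM in pre-HSC I and at 98.9, 93.7 and 198 CPM in pre-HSC II. The E10.5 HE libraries lay below all others. Its difference was -1.22 from EC to HE (SE 0.34, adjusted p = 0.044) and 2.065 from HE to pre-HSC I (SE 0.35, adjusted p = 0.00044). The first of these was lost in 5 of the 6 runs without a library, all but HE replicate 1. Without that library the differences were -1.82 and 2.68. At E9.5, pro-HSC/HPC and HE had overlapping levels, at 77.8 to 94.1 and 65.0 to 84.8 CPM.

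Slc16a3 (MCT4, which exports lactate from strongly glycolytic cells) had the largest ratio of highest to lowest mean of the 4 transporters, 28.3. Its mean was 86.9 CPM ± 39.2 (SD, n = 3) in E8.5 EC, 21.3 ± 3.22 in E9.5 EC and 8.13 ± 7.05 in E10.5 EC, and 43.8 ± 15.5 (SD, n = 4), 17.4 ± 6.73 and 3.07 ± 0.784 in HE of the 3 days. It fell by 2.03 in EC from E8.5 to E9.5 (SE 0.53, adjusted p = 0.008) and by 2.50 in HE from E9.5 to E10.5 (SE 0.55, adjusted p = 0.0093), the latter lost without E9.5 HE replicate 3 or E10.5 HE replicate 2. Of the reads on both lactate carriers, per kb, Slc16a1 took 43.9% ± 17.6 (SD, n = 3) in E8.5 EC, 72.2% ± 10.6 in E9.5 HE and 95.3% ± 2.37 in pre-HSC II.

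**Figure D4:**
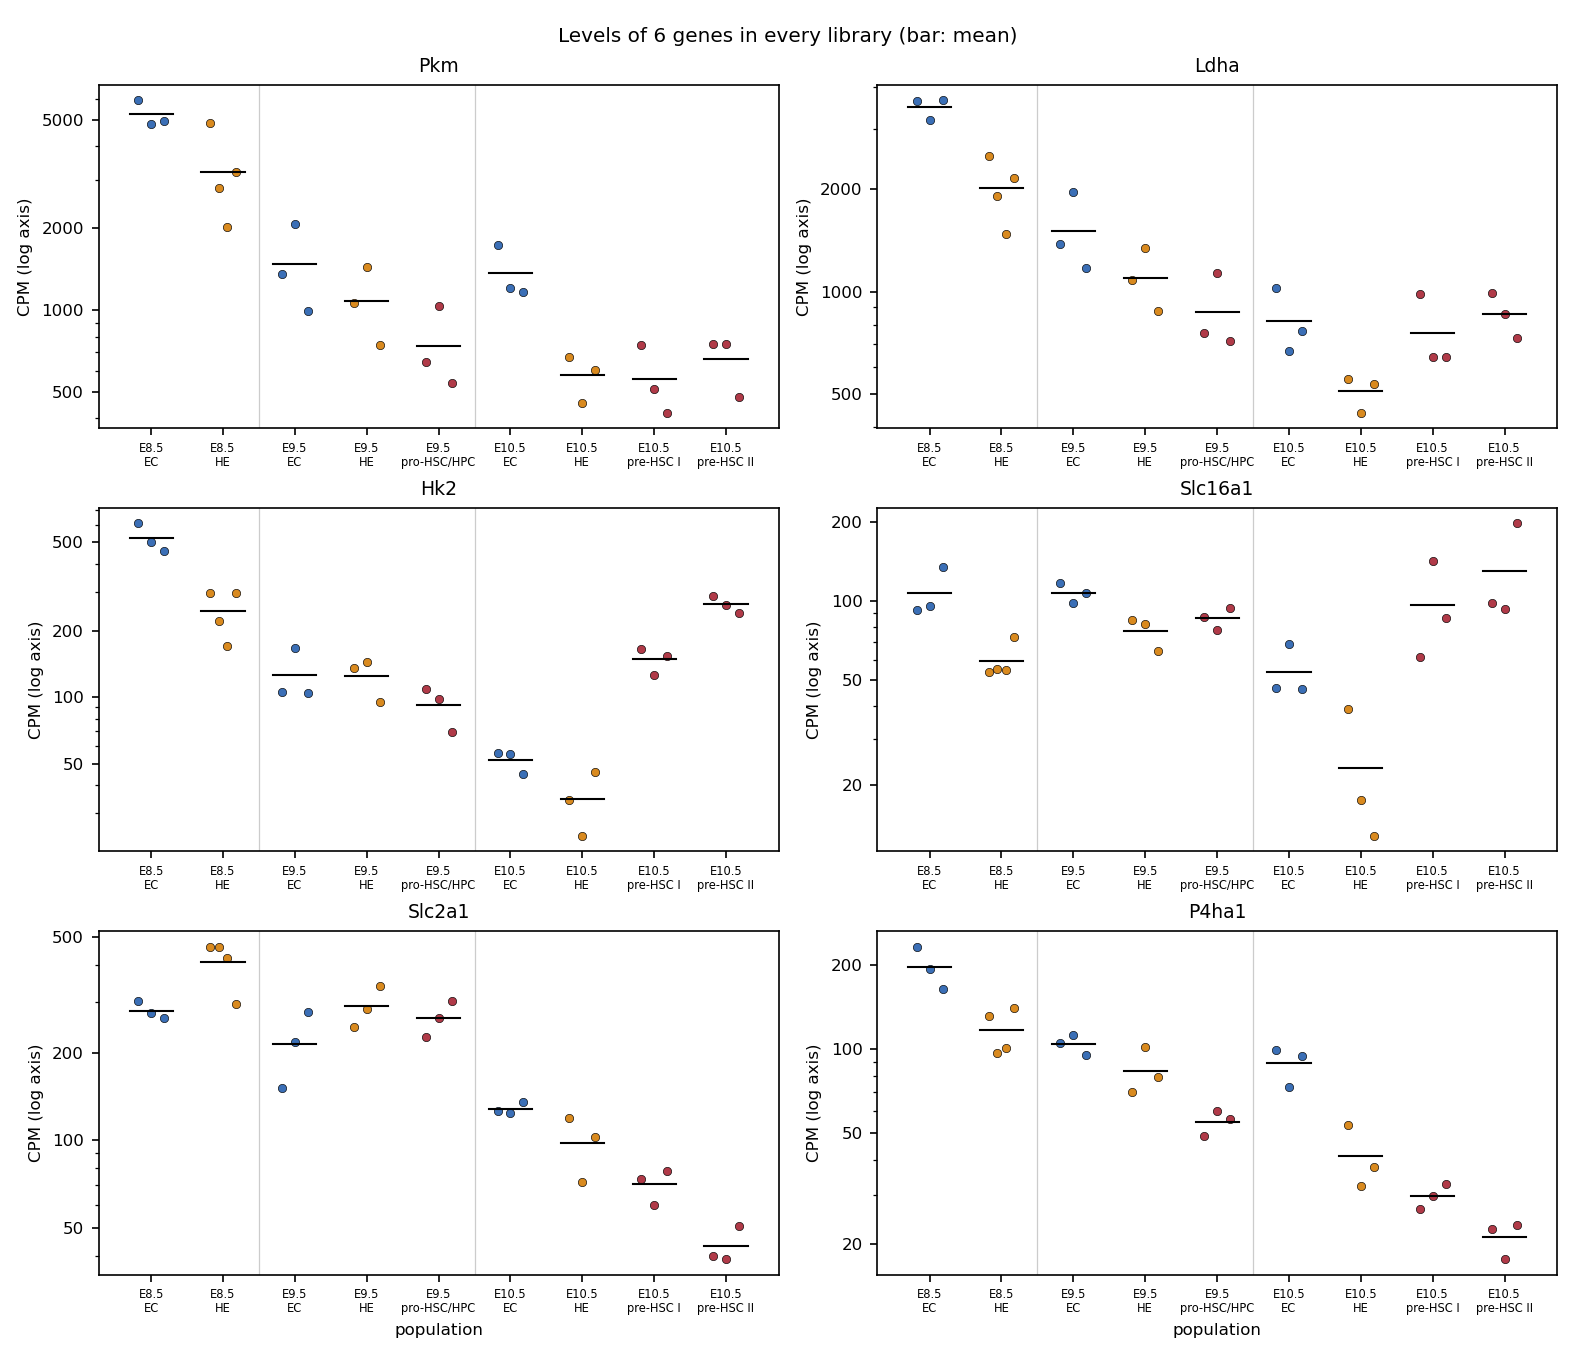
CPM (log axis) of Pkm, Ldha, Hk2, Slc16a1, Slc2a1 and P4ha1 in each library, by population; each point is a library and each bar the mean. Hk2 and Slc16a1 are lowest in E10.5 HE (means 34.6 and 23.1 CPM) and higher in pre-HSC I and pre-HSC II, whereas Slc2a1 and P4ha1 are lowest in pre-HSC II (means 43.1 and 21.2 CPM).

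The promoters of the 35 genes, among them the 11 that fell in HE from E9.5 to E10.5, were searched for ACGTG, the core of the element that HIF is known to bind. The search covered both strands (as ACGTG or CACGT) in the 250 bases before the RefSeq start, in RefSeq sequence of build GRCm38.p6. For a gene with several promoters the one with the most matches was taken. Of the 35 genes 33 had an entry, and Slc2a3 and Epas1 had none. A match was found for 9 of the 11 genes that fell (all but Gapdh and Pdk1) and for 18 of the 33 genes (54.5%). A match was held by 16.6% of all 32851 promoters in the RefSeq file, by 18.5% of its 27025 symbols, and by 24.2% of the 11308 tested genes found there. A promoter holding CACGTG, which is also the core of the E-box that Myc and Usf proteins bind, counts on both strands, and 6 of the 33 genes had it. These are matches of letters and not shown sites. The list holds known HIF targets by choice, which alone can raise its share of matches, and a part of HIF in the falls was not tested. For 27 of the 33 genes the bases after a RefSeq start of the gene were found within a GENCODE transcript of that gene. Slc16a1 and Pgam1 were not among them. For a gene with several promoters, the start found need not be that of the promoter searched.

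The promoters of 4 of the genes that fell, those with the most matches and, among equals, the smallest adjusted p, are printed 5′ to 3′ on the gene's own strand, with the matches in capitals, to show where they lie before the start. For Slc16a1 the start was not found in a GENCODE transcript of the gene, so the place of its matches is uncertain. Ldha has 2 promoters in the RefSeq file, and the search does not say which of their starts was found. Ldha (chr7:46845554-46845803, plus strand) has 5 matches from 2 CACGTG and 1 CACGT, Hk2 (chr6:82774455-82774704, minus strand) has 2, Slc16a1 (chr3:104638414-104638663, plus strand) has 2 from 1 CACGTG, and Slc16a3 (chr11:120948817-120949066, plus strand) has 2.
Ldha: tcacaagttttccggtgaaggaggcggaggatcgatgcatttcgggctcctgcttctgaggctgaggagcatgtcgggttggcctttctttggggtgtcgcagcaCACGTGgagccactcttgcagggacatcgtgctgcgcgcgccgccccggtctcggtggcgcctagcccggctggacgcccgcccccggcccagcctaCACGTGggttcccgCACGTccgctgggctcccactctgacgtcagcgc
Hk2: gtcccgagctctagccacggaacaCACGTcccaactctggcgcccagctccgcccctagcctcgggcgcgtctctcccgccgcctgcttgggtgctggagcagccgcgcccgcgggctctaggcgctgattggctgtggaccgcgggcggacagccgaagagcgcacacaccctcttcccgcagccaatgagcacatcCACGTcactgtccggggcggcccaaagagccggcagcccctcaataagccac
Slc16a1: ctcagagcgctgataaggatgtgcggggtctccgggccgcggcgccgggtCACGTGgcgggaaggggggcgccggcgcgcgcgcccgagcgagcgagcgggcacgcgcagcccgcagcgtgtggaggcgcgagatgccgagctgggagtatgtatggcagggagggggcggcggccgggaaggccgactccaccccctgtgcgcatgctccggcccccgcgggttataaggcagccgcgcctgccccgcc
Slc16a3: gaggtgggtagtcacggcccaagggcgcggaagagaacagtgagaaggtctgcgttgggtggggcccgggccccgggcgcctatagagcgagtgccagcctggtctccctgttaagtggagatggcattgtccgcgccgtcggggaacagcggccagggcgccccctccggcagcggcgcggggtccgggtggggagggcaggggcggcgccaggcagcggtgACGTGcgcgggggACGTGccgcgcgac

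Hk2 (hexokinase 2, which traps glucose in the cell as glucose 6-phosphate; chromosome 6, 82675021 to 82724448, mm9) was called in 7 comparisons, more than any other of the 35 genes. It was at 609, 501 and 455 CPM in E8.5 EC and at 295, 221, 170 and 296 CPM in E8.5 HE, and the groups did not overlap (-1.09, SE 0.24, adjusted p = 0.0049). In HE it went on to 136, 145 and 94.9 CPM at E9.5 and to 34.4, 23.7 and 45.8 CPM at E10.5. In the blood populations of E10.5 it was back at 166, 127 and 153 CPM (pre-HSC I) and at 287, 261 and 240 CPM (pre-HSC II). The steps in HE were -0.97 (SE 0.25, adjusted p = 0.017; lost without E8.5 HE replicate 1 or 4 or E9.5 HE replicate 1 or 3) and -1.85 (SE 0.27, adjusted p = 0.00034). In EC Hk2 fell as well, to 105, 167 and 105 CPM at E9.5 (-2.05, SE 0.27, adjusted p = 8.4e-06) and to 55.7, 55.6 and 44.8 CPM at E10.5 (-1.27, SE 0.26, adjusted p = 0.019; lost without E9.5 EC replicate 2 or E10.5 EC replicate 2 or 3). The E10.5 libraries of HE and EC overlapped and lay below all others. The rise from HE to pre-HSC I was 2.1 (SE 0.27, adjusted p = 2.7e-05), whereas pro-HSC/HPC (109, 98.2 and 69.4 CPM) did not differ from E9.5 HE beyond their spread (-0.44, SE 0.26, adjusted p = 0.87). The step from pre-HSC I to pre-HSC II, 0.82, was not called (SE 0.26, adjusted p = 0.075), though the groups did not overlap.

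Hk1 (hexokinase 1, the form found in most tissues) had its lowest mean in E8.5 EC, where Hk2 had its highest. No comparison called it without the replicate block, and with it Hk1 was higher in E8.5 HE than in EC by 1.70 (adjusted p = 0.0067, against 0.051). Its mean was 8.26 CPM ± 7.02 (SD, n = 3) in E8.5 EC. Along HE it was 20.2 ± 5.44 (SD, n = 4), 28.5 ± 4.83 and 40.5 ± 14.0 CPM on the 3 days, and pre-HSC II had 47.6 ± 7.80. Of the reads on both hexokinases, per kb, Hk1 took 1.77% ± 1.22 (SD, n = 3) in E8.5 EC and 9.85% ± 4.83 (SD, n = 4) in E8.5 HE. Within HE its share was 22.3% ± 6.24 at E9.5 and 58.7% ± 7.16 at E10.5, while pre-HSC I had 26.7% ± 5.53 and pre-HSC II 18.2% ± 2.90 (SD, n = 3 each). The groups did not overlap from E9.5 HE to E10.5 HE or from there to pre-HSC I, and each of these exact permutation tests, two-sided, gave p = 0.1, the smallest that 3 against 3 libraries allow (0.3 after Benjamini-Hochberg adjustment over 132 such tests of shares). A share does not depend on how libraries are scaled.

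Of the phosphofructokinases, which commit sugar to glycolysis, Pfkl (the liver form) was at 757, 493 and 415 CPM in E8.5 EC, at 568, 276, 115 and 161 CPM in E8.5 HE and at 77.7, 70.0 and 81.8 CPM in E9.5 HE. Its spread over the E8.5 HE libraries was wide, yet all lay above those of E9.5 HE (-1.87, SE 0.36, adjusted p = 0.003; -1.25 without E8.5 HE replicate 1, and lost with only the groups compared in the fit). In EC it fell by 2.41 from E8.5 to E9.5 (SE 0.38, adjusted p = 0.0001). Pfkp (the platelet form) was at 26.4, 39.6 and 26.7 CPM in E10.5 EC and at 9.11, 9.78 and 10.8 CPM in E10.5 HE, with no overlap (-1.64, SE 0.38, adjusted p = 0.011), a call that was lost without EC replicate 2 or HE replicate 2. Reads of Pfkp cannot all be told from those of Pitrm1, which lies on the other strand and shares 6.59% of the Pfkp exon bases. Pfkm (the muscle form) had a mean of 8.66 to 18.2 CPM in all populations and was never called, and its share of the 3 forms, per kb, was 2.09% ± 0.434 (SD, n = 3) in E8.5 EC and 21.9% ± 5.10 in E10.5 HE.

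Pfkfb3, whose product makes the sugar bisphosphate that activates phosphofructokinase and is known to drive glycolysis in sprouting vessels, had its lowest mean in E8.5 EC. It was at 1.53, 2.51 and 5.08 CPM in E8.5 EC, at 5.24, 10.8, 16.7 and 11.7 CPM in E8.5 HE and at 15.9, 8.85 and 25.7 CPM in E9.5 EC. Both groups were above E8.5 EC in every library. The difference was 1.88 for HE (SE 0.54, adjusted p = 0.031), which was lost without EC replicate 1 or 2 or HE replicate 3 or 4, and 2.48 for E9.5 EC (SE 0.57, adjusted p = 0.0032; 3.06 without E8.5 EC replicate 3). Pfkfb4, of the same family, stayed at means of 0.779 to 2.53 CPM.

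Gpi1, the isomerase after hexokinase, had means from 587 CPM in E8.5 EC to 200.3 CPM in E10.5 HE and was never called. Aldoa (aldolase A) was called in 2 comparisons and Tpi1 (triose phosphate isomerase) in the same 2, both falling from E8.5 to E9.5 in HE and in EC. Aldoa went from 4626 CPM ± 470 (SD, n = 3) to 1832 ± 674 in EC (-1.34, SE 0.28, adjusted p = 0.0014) and from 2940 ± 624 (SD, n = 4) to 1532 ± 438 in HE (-0.94, SE 0.26, adjusted p = 0.029), where the call was lost without E8.5 HE replicate 1 or 4 or E9.5 HE replicate 1 or 3. Tpi1 went from 1059 ± 59.8 to 422 ± 124 CPM in EC (-1.33, SE 0.29, adjusted p = 0.0022). Its call in HE (-0.98, SE 0.27, adjusted p = 0.029) was lost in 5 of 7 runs, all but those without E8.5 HE replicate 3 or E9.5 HE replicate 2. The HE calls of both genes were lost with only the groups compared in the fit. Aldoc (aldolase C) was at means of 0.233 to 5.34 CPM, so that Aldoa made up 99.7% or more of the 2 aldolases, per kb, in the mean of every population.

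In lower glycolysis, Pgam1 (phosphoglycerate mutase) was called in 6 comparisons and always fell. It was at 1351, 1366 and 889 CPM in E8.5 EC, at 873, 921, 532 and 769 CPM in E8.5 HE and at 417, 396 and 395 CPM in E9.5 HE. At E10.5 it was at 309, 257 and 292 CPM in EC and at 185, 142 and 188 CPM in HE, with no overlap. The difference between HE and EC was -0.64 at E8.5 (SE 0.18, adjusted p = 0.034), where the groups overlapped, and -0.74 at E10.5 (SE 0.20, adjusted p = 0.036). The first of these calls was lost without EC replicate 1 or 2 or HE replicate 3 or 4, and the second without any of the 6 libraries other than EC replicate 2. Within HE it was -0.94 from E8.5 to E9.5 (SE 0.19, adjusted p = 0.0042) and -1.23 from E9.5 to E10.5 (SE 0.20, adjusted p = 0.001).

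Pkm (pyruvate kinase, the last step of glycolysis; chromosome 9, 59504175 to 59527182, mm9) was the most abundant of the 35 genes in E8.5 EC by CPM, at 5921, 4843 and 4981. It was at 4865, 2807, 2014 and 3216 CPM in E8.5 HE and at 1060, 1436 and 744 CPM in E9.5 HE, a fall without overlap (-1.58, SE 0.31, adjusted p = 0.0039). At E10.5 it was at 1732, 1209 and 1167 CPM in EC and at 672, 457 and 600 CPM in HE, again without overlap (-1.25, SE 0.33, adjusted p = 0.029), a call lost without EC replicate 1 or HE replicate 2 or 3. The table has 1 row for Pkm, so its spliced forms are not told apart. Ranked over the 9 population means, Pgam1 and P4ha1 were most like Pkm among the 35 genes (Spearman's rho 0.95 for both) and Hk1 was least like it (-0.92); the 9 means share the scaling of libraries, and this is a description.

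Gapdh (glyceraldehyde 3-phosphate dehydrogenase, often used as a reference gene) did not hold a constant level. It was at 860, 952 and 936 CPM in E9.5 HE and at 447, 279 and 431 CPM in E10.5 HE, a difference of -1.25 (SE 0.22, adjusted p = 0.0016) that kept its sign under DESeq2's size factors. From E8.5 to E9.5 it differed by -0.05 in HE (SE 0.20) and -0.19 in EC (SE 0.21), neither of which was called. Pgk1 (phosphoglycerate kinase) fell in EC from E8.5 to E9.5 (-0.93, SE 0.29, adjusted p = 0.026), in HE from E9.5 to E10.5 (-1.33, SE 0.30, adjusted p = 0.01) and from pro-HSC/HPC to pre-HSC I (-1.42, SE 0.30, adjusted p = 0.011). These calls were lost without E8.5 EC replicate 1 or 3 or E9.5 EC replicate 1 or 3, without E9.5 HE replicate 2 or E10.5 HE replicate 2, and without pro-HSC/HPC replicate 2 or pre-HSC I replicate 2 or 3, respectively. Gapdh, Pgk1, Ldha, Pgam1, Aldoa and Tpi1 have near-identical processed copies in the genome, and how such reads were counted is not given in the sources used here, so their absolute levels are uncertain.

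Eno1 (enolase 1) could not be read from its own row. A row named Eno1b lists 12 exons at the Eno1 locus (chromosome 4, 149611433 to 149622982, mm9) besides exons on another chromosome, and shares 92.9% of the Eno1 exon bases. The Eno1 row held 1981 counts over all libraries and the Eno1b row 138223. The Eno1b row, which is no member, had a mean of 633 CPM ± 151 (SD, n = 3) in E8.5 EC and 59.4 ± 15.0 in E10.5 HE. Eno2, the neuronal enolase, was at means of 0.0328 to 1.13 CPM and was never called.

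Ldha (lactate dehydrogenase A, which favours lactate) was called in 4 comparisons and always fell. It was at 3627, 3202 and 3655 CPM in E8.5 EC and at 2505, 1906, 1475 and 2160 CPM in E8.5 HE, without overlap (-0.80, SE 0.23, adjusted p = 0.031), a call that was lost without any EC replicate and without HE replicate 2 or 3. In HE it was at 1081, 1339 and 877 CPM at E9.5 and at 553, 441 and 536 CPM at E10.5 (-1.11, SE 0.25, adjusted p = 0.01; lost without replicate 2 of either day). Ldhb (lactate dehydrogenase B, found in tissues that take up lactate) fell in EC from 53.8 CPM ± 21.8 to 14.9 ± 13.2 between E8.5 and E9.5 (-1.85, SE 0.51, adjusted p = 0.011; lost without E8.5 EC replicate 3 or E9.5 EC replicate 1 or 3, and -2.85 without E9.5 EC replicate 2) and was at 48.7 ± 7.84 in E10.5 EC (SD, n = 3 each). That last difference, 1.71, was not called (SE 0.51, adjusted p = 0.12), while without E9.5 EC replicate 2 it was. Ldha took 97.8% to 98.7% of the 2 dehydrogenases, per kb, in the means of all 5 populations of E8.5 and E9.5, and 91.3% to 94.2% in those of E10.5.

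Pdk1 (pyruvate dehydrogenase kinase 1, which holds pyruvate back from the mitochondrion) had its highest mean in E9.5 EC. It was at 40.5, 30.3 and 55.5 CPM in E8.5 EC and at 148, 81.2 and 108 CPM in E9.5 EC (1.42, SE 0.36, adjusted p = 0.0069). In HE it was at 86.7, 62.9 and 87.4 CPM at E9.5 and at 22.5, 28.5 and 27.3 CPM at E10.5 (-1.60, SE 0.36, adjusted p = 0.012; lost without E9.5 HE replicate 3 or E10.5 HE replicate 1). Neither pair of groups overlapped. Pdha1, a subunit of pyruvate dehydrogenase, had means of 94.7 to 180 CPM, and its 1 call, a fall in EC from E8.5 to E9.5 (-0.78, SE 0.27, adjusted p = 0.044), was lost in 5 of 6 runs, all but that without E9.5 EC replicate 2. Pdha1 shares 21.8% of its exon bases with Map3k15, whose row held 396 counts against 79336.

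Of the HIF subunits Epas1 (chromosome 17, 87153204 to 87232750, mm9), which is known for its role in blood vessels, varied most. It was at 3.91, 3.65 and 18.1 CPM in E8.5 EC and at 18.01, 24.6, 39.0 and 24.6 CPM in E8.5 HE, where the groups met at 1 library (1.65, SE 0.46, adjusted p = 0.026; lost without EC replicate 1 or 2 or HE replicate 3, and 2.81 without EC replicate 3). At E9.5 it was at 36.3, 18.04 and 48.6 CPM in EC, at 119, 96.5 and 134 CPM in HE and at 121, 60.4 and 112 CPM in pro-HSC/HPC. At E10.5 it was at 59.5, 115 and 56.3 CPM in EC and at 232, 272 and 280 CPM in HE. The mean of HE was thus above that of EC on each day, with differences of 1.65, 1.76 and 1.76, of which that at E10.5 (SE 0.47, adjusted p = 0.033) was lost without EC replicate 1 or 3 or HE replicate 2 or 3. Between E8.5 and E9.5 Epas1 rose by 2.13 in HE (SE 0.43, adjusted p = 0.0042) and by 2.02 in EC (SE 0.48, adjusted p = 0.0042), the latter with overlap. The EC value was 3.19 without E8.5 EC replicate 3, and its call was lost with only the groups compared in the fit (adjusted p = 0.056).

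Epas1 then went down along the blood populations of E10.5. It was at 66.6, 63.8 and 79.6 CPM in pre-HSC I and at 5.24, 1.99 and 3.45 CPM in pre-HSC II, and neither step overlapped. The differences were -1.90 from HE to pre-HSC I (SE 0.47, adjusted p = 0.012; lost without pre-HSC I replicate 2) and -4.29 from there to pre-HSC II (SE 0.53, adjusted p = 2.9e-06). The summed endothelial markers went the same way, from 3207 to 3473 CPM in HE to 959 to 1283 in pre-HSC I and 311 to 395 in pre-HSC II, and their part in this result was not tested. At E9.5, pro-HSC/HPC held 2048 to 2306 CPM of these markers, and Epas1 there differed from HE by -0.25, within its error (SE 0.45).

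Hif1a, the alpha subunit found in nearly all cells, had means from 86.3 CPM in E10.5 HE to 143 CPM in E9.5 EC, a range of 1.65 times, against 73.4 times for Epas1. It was at 80.5, 77.4 and 119 CPM in E8.5 EC, at 78.9, 115, 168 and 160 CPM in E8.5 HE and at 142, 112 and 124 CPM in E9.5 HE. At E10.5 it was at 101, 157 and 116 CPM in EC, at 75.0, 89.6 and 94.2 CPM in HE, at 77.4, 135 and 126 CPM in pre-HSC I and at 72.6, 91.4 and 125 CPM in pre-HSC II, and no comparison called it. Arnt, the shared partner, had means from 15.6 CPM ± 7.65 (SD, n = 3) in pre-HSC II to 31.6 ± 10.4 in E10.5 HE and was not called either. Of the reads on the 2 alpha subunits, per kb, Hif1a took 93.3% ± 4.56 (SD, n = 3) in E8.5 EC, 54.9% ± 3.44 in E9.5 HE and 27.0% ± 0.382 in E10.5 HE, where the libraries were at 26.7%, 27.1% and 27.4%. It was back at 63.7% ± 6.88 in pre-HSC I and at 96.6% ± 2.26 in pre-HSC II. In the HE minus EC comparison the groups did not overlap on any of the 3 days, with differences of -8.79, -27.5 and -38.3 percentage points and exact permutation p of 0.0571, 0.1 and 0.1, each the smallest its design allows (0.3 after adjustment over the 132 tests).

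**Figure D5:**
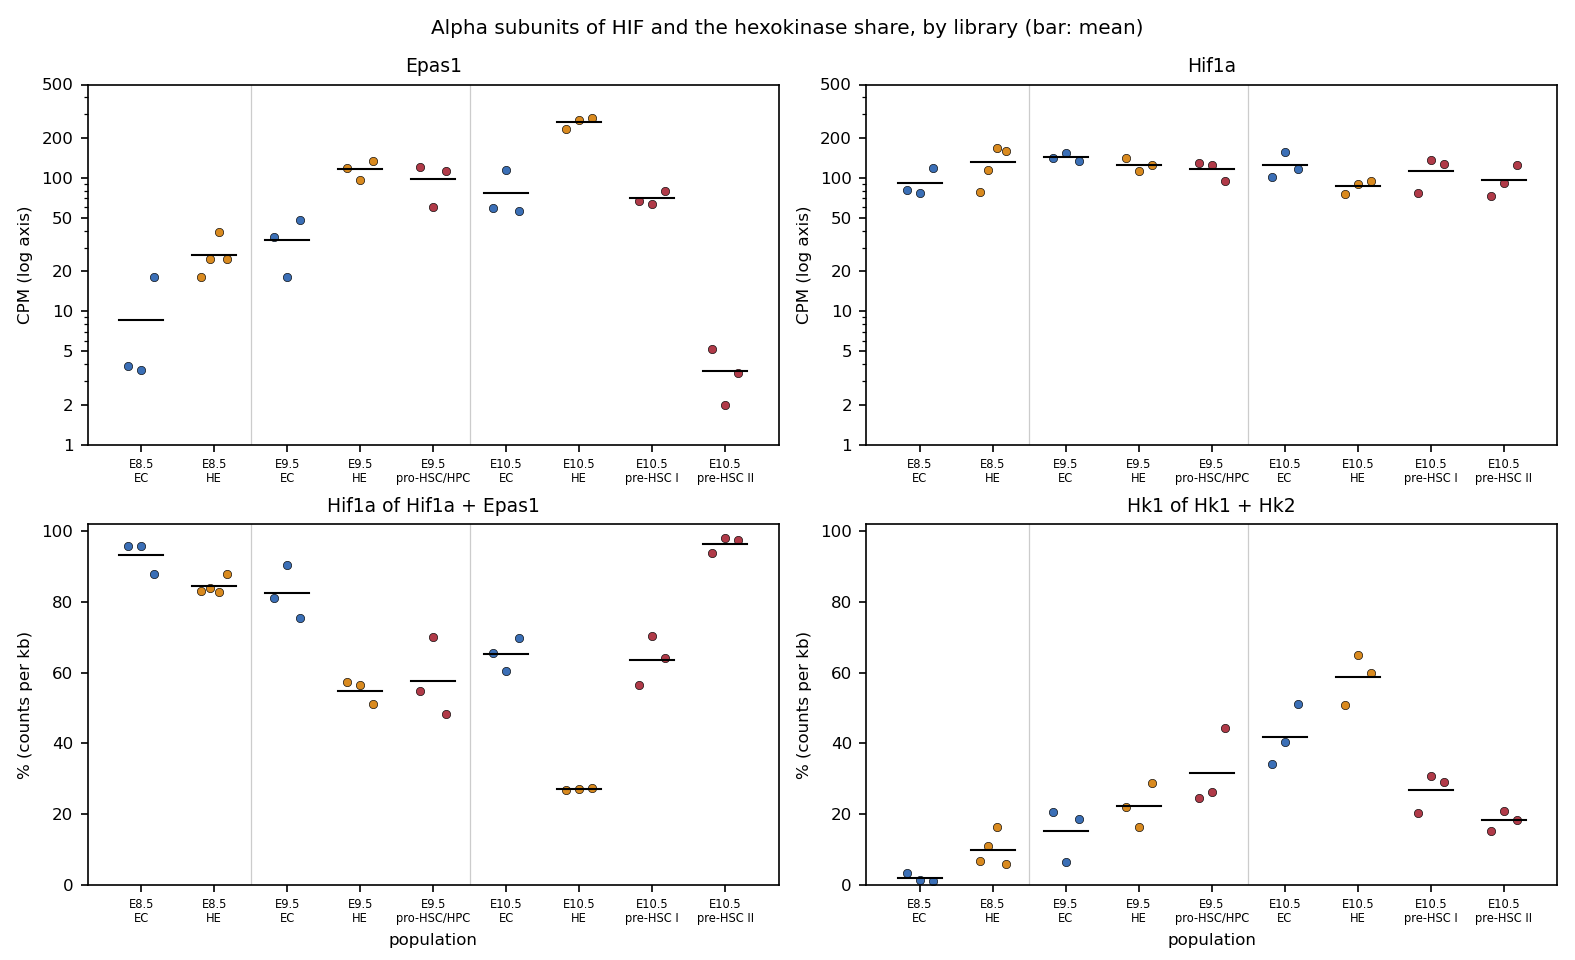
Upper panels, CPM (log axis) of Epas1 and Hif1a in each library; lower panels, Hif1a as a percentage of Hif1a and Epas1, and Hk1 as a percentage of Hk1 and Hk2, from counts per kb; points are libraries and bars means. The mean Hif1a share is lowest and the mean Hk1 share highest in E10.5 HE (27.0% and 58.7%), and the E10.5 HE and EC points of the Hk1 share overlap.

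Among the known targets, P4ha1 was called in 5 comparisons, lower in each. The call from pro-HSC/HPC to pre-HSC I (-0.88, SE 0.22, adjusted p = 0.038) was lost without any 1 of the 6 libraries, under DESeq2's size factors (adjusted p = 0.055), without the filter (0.079), with only the groups compared (0.12) and without pro-HSC/HPC replicates 2 and 3 together (0.77). That in HE from E9.5 to E10.5 (-1.02, SE 0.22, adjusted p = 0.008) was lost without replicate 2 of either day. P4ha1 (the catalytic subunit of a collagen prolyl hydroxylase) was at 234, 194 and 165 CPM in E8.5 EC, at 132, 97.1, 101 and 140 CPM in E8.5 HE, at 99.3, 73.5 and 94.7 CPM in EC of E10.5 and at 53.7, 32.2 and 37.8 CPM in E10.5 HE. HE was below EC without overlap at E8.5 (-0.75, SE 0.20, adjusted p = 0.023; lost without EC replicate 1 or 2 or HE replicate 2 or 3) and at E10.5 (-1.11, SE 0.22, adjusted p = 0.0033). P4ha2, its sister subunit, had a mean of 63.2 CPM ± 8.54 (SD, n = 3) in E8.5 EC and 11.2 ± 3.78 in E9.5 EC (-2.50, SE 0.47, adjusted p = 0.00064). It was at 6.72, 8.29 and 5.44 CPM in pre-HSC I and at 1.88, 3.46 and 0.623 CPM in pre-HSC II (-1.77, SE 0.48, adjusted p = 0.027; lost without pre-HSC I replicate 1 or 2 or pre-HSC II replicate 1 or 3, and -2.43 without pre-HSC II replicate 2).

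Adm (adrenomedullin, a peptide that acts on vessels) was at 7.02, 1.52 and 4.94 CPM in pre-HSC I and at 0, 0.0407 and 0 CPM in pre-HSC II. The counts behind this were 288 and 1, a depth-scaled ratio of 320 with a 95% counting interval of 56.9 to 12700, and the fall was called (adjusted p = 7.1e-05). Bnip3, which takes part in the removal of mitochondria, fell from 278 CPM ± 49.1 to 104 ± 47.0 in EC between E8.5 and E9.5 and from 81.1 ± 34.2 to 28.5 ± 15.1 in HE between E9.5 and E10.5 (SD, n = 3 each; adjusted p = 0.017 and 0.041). The first of these was lost without E9.5 EC replicate 1 or 3, the second without E9.5 HE replicate 1 or 2 or E10.5 HE replicate 2 or 3. Of the oxygen-sensing hydroxylases, Egln1 (PHD2) was at 54.5, 29.2 and 62.3 CPM in pro-HSC/HPC and at 15.4, 20.1 and 24.2 CPM in pre-HSC I (-1.29, SE 0.31, adjusted p = 0.031; lost without pro-HSC/HPC replicate 1 or 3 or pre-HSC I replicate 1 or 2). Egln3 (PHD3) fell in EC from 25.8 ± 11.9 to 8.18 ± 0.777 CPM between E8.5 and E9.5 (-1.66, SE 0.55, adjusted p = 0.035), a call lost without any of the 6 libraries other than E8.5 EC replicate 3. Ankrd37 had means of 5.75 to 15.6 CPM and was never called.

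Other genes of the same pathways, listed by name, were counted by the same rule. Of 32 further HIF pathway genes tested, 3 rose in E10.5 HE against EC and none fell: Vegfa (vascular endothelial growth factor A; 1.98, SE 0.50, adjusted p = 0.025), Bnip3l (0.80, SE 0.22, adjusted p = 0.036) and Plod1 (1.04, SE 0.28, adjusted p = 0.04). From HE to pre-HSC I 5 of the 32 fell, with Hmox1 (heme oxygenase 1; -1.53, SE 0.35, adjusted p = 0.0064) and Bnip3l (-0.93, SE 0.22, adjusted p = 0.0083) first. In HE from E9.5 to E10.5, 5 of the 32 fell and none rose, with Fam162a (-1.56, SE 0.24, adjusted p = 0.00057), Ak4 (-2.87, SE 0.55, adjusted p = 0.0035) and Mif (-1.74, SE 0.36, adjusted p = 0.0062) first. Of the 32, 1 rose and 2 fell in E8.5 HE against EC, 0 and 2 in HE from E8.5 to E9.5, 2 and 4 in EC over the same days, and 0 and 1 both in EC from E9.5 to E10.5 and from pre-HSC I to pre-HSC II. Their median difference in HE from E9.5 to E10.5 was 0.12, where that of the 35 genes was -0.78 and that of all genes 0.02. Of all genes, 2.11% rose and 1.37% fell in E10.5 HE against EC, and 3.08% and 3.8% from HE to pre-HSC I. In HE from E9.5 to E10.5 it was 1.49% and 2.15%, in E8.5 HE against EC 5.08% and 1.73%, and in HE from E8.5 to E9.5 2.97% and 3.58%. In EC it was 10.1% and 9.56% from E8.5 to E9.5 and 0.308% and 0.453% from E9.5 to E10.5. From pre-HSC I to pre-HSC II it was 0.138% and 4.28%.

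Of 26 other glycolysis and pyruvate genes tested, 1 rose (Bpgm, which makes 2,3-bisphosphoglycerate; 1.21, SE 0.32, adjusted p = 0.029) and 0 fell in HE from E9.5 to E10.5, with a median of 0.29. Of the 26, 2 rose and 0 fell in E8.5 HE against EC, 1 and 0 in E10.5 HE against EC, 2 and 0 from HE to pre-HSC I, 1 and 1 in HE from E8.5 to E9.5, and 4 and 5 in EC over the same days. Of 18 citrate cycle genes, 4 fell and 0 rose in EC from E8.5 to E9.5, among them Mdh2 (-1.09, SE 0.31, adjusted p = 0.013) and Idh3g (-0.80, SE 0.25, adjusted p = 0.028). In HE from E9.5 to E10.5, 1 citrate cycle gene fell, Ogdh (-1.07, SE 0.24, adjusted p = 0.0098). Of 8 pentose phosphate genes, 1 was called in the 11 comparisons between populations, Rpia, which rose in EC from E8.5 to E9.5 (3.46, SE 0.88, adjusted p = 0.0069). The shares of all genes are those given with the further HIF pathway genes. In EC from E8.5 to E9.5 the counts of 4 and 5 of 26 stood beside 10.1% of all genes higher and 9.56% lower. The counts of these lists are descriptions, and no list was tested against another.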

How the data were processed

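The authors deposited unnormalized counts for each gene on mm9, made with TopHat, SAMtools, Subread and featureCounts 1.6.2 per the submitters' processing notes; how strand and reads with several matches were treated is not given in the sources used here. Columns were matched to libraries by name, and groups and replicate numbers come from the labels. The analysis used edgeR 4.0.16 in R 4.3.3: filterByExpr (minimum count 10) kept 15238 genes, libraries were scaled by TMM, and all 28 libraries entered 1 quasi-likelihood fit with a term for each population, with Benjamini-Hochberg adjustment over all genes. The model was tested on simulated data. On counts simulated for E10.5 HE against EC it called 17% of the 2-fold changes and 87% of the 4-fold changes, with 3 false calls among 107. A gene that was not called can thus still differ by 2 times. CPM use the same scaling, and 3 counts correspond to 0.108 to 0.188 CPM. The TMM factors differed between populations, at 0.789 to 0.811 in E8.5 EC and 0.966 to 1.25 in pre-HSC I. A lower factor raises the CPM of a library. Isozyme shares used counts per kb of exon and exact permutation tests. The counting interval leaves out other error, as reads after PCR can stem from 1 molecule. Nothing says that replicates came from separate embryos, so the p-values rest on a spread among samples that may be technical. No 2 replicates agreed within sampling noise.

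Libraries of the same replicate number deviated together (correlation of deviations from group means over 0.1 for every pair) in E8.5 HE and EC (0.174 to 0.215), E9.5 HE and EC (0.105 to 0.279) and pro-HSC/HPC and HE (0.135 to 0.344); there the fit with the replicate number as a block is given beside the result where it changes a call. Values in every library are given for genes called within a day (up to 6 per comparison by p) and for the HIF subunits; genes outside the 35 were named from 4 pathway lists, up to 3 per comparison by adjusted p. A gene that this rule names is not reported here. The members and lists were chosen with earlier results of these data known. Alternatives were DESeq2 1.42.0, its size factors, no filter, the replicate block, only the groups compared, and leaving out each library, or both hemoglobin-rich ones (pro-HSC/HPC replicates 2 and 3). Promoters come from a RefSeq table of GRCm38.p6 and the counts from mm9, and no coordinates were converted.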

Additional observations from a re-analysis of the deposited data

Results flagged for a closer look

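In E8.5 HE the Slc16a1 level of replicate 4, 73.2 CPM, stood apart from the other three libraries (53.7 to 55.1 CPM), and the Tpi1 level of replicate 3, 469 CPM, stood apart below the others (711 to 743 CPM). The gap to the nearest library, as a part of the group's range, passed Dixon's critical value for 4 samples in both. The test was made for 35 genes in that 4-library population, and chance flags about 1 in 20 groups.

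Hk2 differed between days in its step from HE to blood: the step was called at E10.5 and not at E9.5, and the difference of the 2 steps was 2.54 on the log2 scale (SE 0.37, edgeR adjusted p = 0.002). All 3 pre-HSC I libraries (127 to 166 CPM) were above all 3 E10.5 HE libraries (23.7 to 45.8 CPM), while pro-HSC/HPC (69.4 to 109 CPM) and E9.5 HE (94.9 to 145 CPM) overlapped. Leaving out each of the 12 libraries in turn gave 2.33 to 2.81, with an adjusted p of 0.015 at most, and without pro-HSC/HPC replicates 2 and 3 together it was 2.29 with an adjusted p of 0.14.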

How the results depend on the processing

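Over the 65 calls, runs that left out 1 library kept 286 of 412 results called and lost 126 with the same sign. The other alternatives kept 294 of 330 and lost 36, and none of either kind changed sign. DESeq2's size factors moved no count of called members by over 1.5 times.

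The counts of called members without 1 library ran from 1 to 10 for E8.5 HE against EC (6 with all libraries), 0 to 0 at E9.5 (0), 1 to 5 at E10.5 (6), 4 to 10 for E9.5 HE against E8.5 HE (10), 6 to 10 for E10.5 HE against E9.5 HE (11), 0 to 3 for E10.5 EC against E9.5 EC (3), 1 to 2 for pre-HSC I against pro-HSC/HPC (4) and 1 to 2 for the change of blood minus HE (1). DESeq2 called 1 for E9.5 HE against EC, 10 for E10.5 HE against EC, 5 for the step from pre-HSC I to pre-HSC II, 7 for E10.5 EC against E9.5 EC and 2 for the change of blood minus HE. With only the groups compared in the fit the counts were 0 for E8.5 HE against EC, 1 at E9.5, 3 for E9.5 HE against E8.5 HE, 1 for E10.5 EC against E9.5 EC and 1 for pre-HSC I against pro-HSC/HPC; fewer libraries then estimate the spread. Without the filter the count was 1 for E9.5 HE against EC. Without pro-HSC/HPC replicates 2 and 3 together it was 1 for pre-HSC I against pro-HSC/HPC and 0 for the change of blood minus HE. The cause of these changes in count was not tested for any setting.

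With the replicate block the counts were 16 for E8.5 HE against EC, 1 for E9.5 HE against EC, 1 for pro-HSC/HPC against HE and 1 for the change of HE minus EC from E8.5 to E9.5, where the numbers pair the libraries. Where they did not pass that check, the block gave 12 for E10.5 HE against EC (lowest correlation of a pair 0.0824), 7 for pre-HSC I against HE (0.0853), 6 for the step from pre-HSC I to pre-HSC II (0.0385) and 5 for the change of blood minus HE. In the comparisons between days the block changed the count by at most 1. The shares of all genes called with the block, by DESeq2 and under the other alternatives are not given here, so these counts cannot be read against them.

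Depth limits the genes at a few CPM (Aldoc, Eno2, Pfkfb4 and Adm in pre-HSC II), and groups of 3 libraries cannot pass an exact test of shares.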
